A study of Oryza sativa Japonica Group with 6 samples.

Results

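The genes described here are the rice loci whose deposited description names a RING-H2 finger protein or a U-box domain-containing protein, both types of ubiquitin ligase. They were taken from the authors' table as loci written LOC_Os that carry either description and reach an RPKM of 1 or more in 2 or more of the 6 libraries. RPKM is the number of reads on a gene divided by the gene's length and the library's read total, so levels of different genes are on 1 scale per length. Of 156 loci with such a description, 101 met the expression rule, 40 of the RING-H2 type and 61 of the U-box type, out of 19429 loci that met it in all. The other 55 loci, 30 RING-H2 and 25 U-box, had lower values and were not tested. The descriptions are best protein matches, 96 to a protein of Arabidopsis thaliana and 5 to a named rice protein, and a locus is called ATL72-type or PUB33-type below after the protein it matched. A locus of a given type is therefore a rice relative of that protein and not shown to be its counterpart.

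Ubiquitin is joined to target proteins by a relay of an activating enzyme (E1), a conjugating enzyme (E2) and a ligase (E3), and the ligase chooses the target. RING-H2 proteins of the ATL family hold the E2 with a small zinc-binding fold and usually sit in a membrane, whereas U-box proteins use a similar fold without zinc and often carry armadillo repeats or, in some, a protein kinase domain. In Arabidopsis both families have members induced by chitin and other elicitors, and individual ligases are known to act in immunity, abscisic acid responses, senescence and the cold response.

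RNA came from the above-ground part, stems with leaves, of seedlings 2 weeks old of the japonica cultivar Lijiangxintuanheigu (LTH), kept for 24 h at 11 °C, 13 °C or 25 °C. No group carried a transgene or another treatment according to the labels, and 25 °C is used here as the reference temperature. Each temperature has 2 libraries, named replicates 1 and 2 and stated to be biological replicates. The series title gives cold-induced leaf rolling as the question.

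The libraries held 15.96 to 18.75 M recovered reads, which makes 1 read on a gene of 1 kb worth 0.0533 to 0.0626 RPKM. Between 16316 and 17788 tested loci per library had an RPKM of at least 1. The shoot markers RCA, CAB1R and CAB2R were present in every library, at 650 to 36600, 201 to 3020 and 19.4 to 46.1 RPKM. The root marker RCc3 was at 0 to 0.127 RPKM, while the root marker OsLsi1 read 0.814 and 0.668 RPKM at 11 °C, 11.9 and 10.9 at 13 °C, compared with 18.1 and 12.9 at 25 °C. RCA was at 1010 and 650 RPKM at 11 °C, 4150 and 4900 at 13 °C, against 27000 and 36600 at 25 °C. CAB1R was at 212 and 201 RPKM at 11 °C, 1090 and 1690 at 13 °C, against 1460 and 3020 at 25 °C. OsLsi1, RCA and CAB1R were thus lowest at 11 °C, while CAB2R was lowest at 13 °C, at 19.4 and 19.6 RPKM. The part of cell or tissue make-up in the results below was not tested. The hours of collection are not in the sources used here, and the effects of clock time and of temperature cannot be told apart. In these whole-shoot samples, fewer cells of a type and less RNA per cell cannot be told apart either.

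The expression rule admitted loci at low levels. Just inside it, the second-highest RPKM was 1.008 for LOC_Os10g40120 (PUB36-type), 1.092 for LOC_Os06g45580 (ATL73-type) and 1.257 for LOC_Os11g40400 (PUB33-type). Just outside it were LOC_Os10g37850 (PUB3-type) at 0.984, LOC_Os04g49170 (ATL64-type) at 0.957 and LOC_Os11g08090 (PUB4-type) at 0.796. The rule was met in all 6 libraries by 60 of the 101 loci. For 10 loci only the libraries of 1 temperature reached an RPKM of 1, 5 at 11 °C, 3 at 13 °C and 2 at 25 °C. These 10 entered through the libraries of 1 temperature alone, so the counts below are descriptions of the loci that met the rule and not of all 156.

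Changes are differences of log2(RPKM + 1) ± standard error, tested with limma in 1 fit of all 6 libraries, and adjusted p-values are Benjamini-Hochberg values over the 19429 loci. This scale understates the change of loci with low RPKM. Rose and fell are used for changes with an adjusted p below 0.05. Folds are ratios of mean RPKM and are given only where each group held more than 10 reads. The comparisons of 11 and 13 °C with 25 °C use the same pair of 25 °C libraries, so their values are placed side by side and not correlated.

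At 11 °C against 25 °C, 42 of the 101 ligase loci rose and 18 fell, and 41 did not pass the test. That is 59.4% called, against 50.1% of all tested loci, with rises at 41.6% against 28.7% and falls at 17.8% against 21.4%. At 13 °C against 25 °C, 28 rose and 17 fell, which is 44.6% called against 43.4% of all tested loci, a share near the background. Between 11 °C and 13 °C, 29 were higher and 17 lower at 11 °C, which is 45.5% against 35.5% of all tested loci.

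The median change of the 101 loci was 0.24 at 11 °C against 25 °C, 0.07 at 13 °C against 25 °C and 0.35 at 11 °C against 13 °C. Over all tested loci the medians were 0.13, 0.12 and -0.02. The medians of all loci moved to 0.01 and -0.01 in the comparisons with 25 °C under median-of-ratios scaling, and to -0.03 in both under quantile scaling. Under these scalings the ligases' median was 0.11 and 0.08 at 11 °C against 25 °C, and turned to -0.03 and -0.14 at 13 °C. Without replicate 1 at 11 °C the median at 11 °C was 0.43, and without replicate 2 it was 0.16. The median at 13 °C was 0.14 and 0.03 without replicates 1 and 2 at 13 °C, 0.04 without either 25 °C library, and 0.22 with a mean RPKM of at least 5. At 11 °C against 13 °C it was 0.15 without replicate 2 at 11 °C, and leaving out replicate 1 at 13 °C gave 0.23. The split of calls moved as well: quantile scaling gave 39 rises and 27 falls at 11 °C and 23 rises and 26 falls at 13 °C against 25 °C, where all tested loci gave 4897 and 4922 at 13 °C. A balance of rises over falls at 13 °C was therefore not kept under every scaling.

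The RING-H2 loci were called more often than the U-box loci in each comparison. Of 40 RING-H2 loci, 19 rose and 10 fell at 11 °C (72.5% called), 13 rose and 8 fell at 13 °C (52.5%), and 13 were higher and 7 lower at 11 °C than at 13 °C (50%). Of 61 U-box loci, 23 rose and 8 fell at 11 °C (50.8%), 15 rose and 9 fell at 13 °C (39.3%), and 16 were higher and 10 lower at 11 °C than at 13 °C (42.6%). Of all tested loci 50.1%, 43.4% and 35.5% were called in these comparisons. The U-box share was thus near the background at 11 °C and below it at 13 °C. Over all tested loci 28.7% rose and 21.4% fell at 11 °C, and 26.4% and 17.0% at 13 °C. Between 11 °C and 13 °C, 17.3% were higher and 18.2% lower at 11 °C. The difference between the families was not tested. Quantile scaling gave 9 rises and 12 falls of RING-H2 loci and 14 of each for U-box loci at 13 °C, and 21 rises and 13 falls of U-box loci at 11 °C.

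Rises shared by both low temperatures were found at 22 loci (21.8%, against 16.6% of all tested loci), 11 in each family. Falls shared by both were found at 7 loci (6.93%, against 11.3%). A rise at 11 °C together with a level above that at 13 °C was found at 22 loci (21.8%, against 11.5%). A rise at 13 °C together with a lower level at 11 °C was found at 9 loci (8.91%, against 9.04%). The reverse of these patterns, a fall at 11 °C to below the 13 °C level, was found at 7 loci (6.93%, against 8.36%), and a fall at 13 °C to below the 11 °C level at 6 loci (5.94%, against 4.84%). At least 1 of the 3 comparisons was called for 78 loci (77.2%, against 67.3%), and none for 23. These pattern counts were not recalculated with other filters, other scalings or libraries left out. Some calls behind them were lost in such settings. The rise at 13 °C, for example, was lost in 8 settings for LOC_Os01g39970 and in 7 for LOC_Os02g35144.

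**Figure D1:**
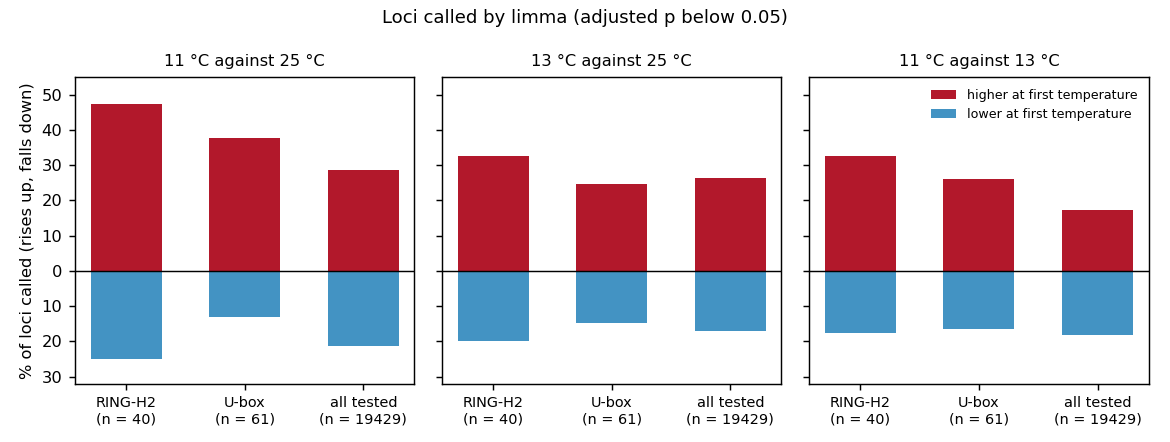
Percent of loci that were higher (red, upward) or lower (blue, downward) at the first temperature of each of the 3 comparisons, for the 40 RING-H2, the 61 U-box and all 19429 tested loci, by limma at an adjusted p below 0.05. Rises outnumber falls for both families in every panel, which quantile scaling did not keep at 13 °C against 25 °C (9 and 12 RING-H2 loci, 14 and 14 U-box loci), and the highest bar is the 47.5% of RING-H2 loci that rose at 11 °C against 25 °C.

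Among RING-H2 loci, the ATL72-type locus LOC_Os05g40020 (chromosome 5, 23510183 to 23511071, plus strand) had the largest rise at 11 °C. It stood at 33.1 and 30.1 RPKM at 11 °C, 10.6 and 14.3 at 13 °C, compared with 0.211 and 0.245 at 25 °C. The 3 temperatures did not overlap, and the level was highest at the lowest temperature. The changes were 4.73 ± 0.25 at 11 °C (adjusted p = 1.28e-05) and 3.44 ± 0.25 at 13 °C (adjusted p = 4.55e-05), and the level at 11 °C was 2.54 times that at 13 °C (adjusted p = 0.00547). Too few reads fell on it at 25 °C for a fold against that group.

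A second ATL72-type locus, LOC_Os01g60730 (chromosome 1, 35121625 to 35122989, minus strand), was likewise close to 0 at 25 °C, at 0.0459 and 0.2 RPKM. It reached 9.17 and 13.7 RPKM at 11 °C, with 26.7 and 43.5 at 13 °C, so here the higher level was at the milder temperature. Its rise was 4.97 ± 0.32 at 13 °C (adjusted p = 3e-05), the largest of the 101 loci in that comparison, and 3.45 ± 0.32 at 11 °C (adjusted p = 0.000101). The level at 11 °C was lower than at 13 °C by a change of -1.52 ± 0.32 (adjusted p = 0.0079), a call that was lost without replicate 1 at 11 °C (adjusted p = 0.0523) or replicate 2 at 13 °C (adjusted p = 0.0575). The third ATL72-type locus, LOC_Os04g34230, stayed between 2.1 and 2.95 RPKM in all 6 libraries and was called in none of the comparisons. Loci of 1 type thus had 3 different courses over temperature.

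Large rises at both low temperatures were also found at an ATL5-type and an ATL36-type locus. LOC_Os10g39936 (ATL5-type) was at 9.58 and 22.8 RPKM at 11 °C, 22.8 and 49.5 at 13 °C, compared with 0.912 and 2.14 at 25 °C. Replicate 2 was the higher of the pair at every temperature, and both cold groups lay above the 25 °C libraries. Its mean was 10.6 times the 25 °C level at 11 °C (2.7 ± 0.49, adjusted p = 0.00259) and 23.7 times at 13 °C (3.82 ± 0.49, adjusted p = 0.000573). LOC_Os02g45390 (ATL36-type) was at 4.24 and 6.89 RPKM at 11 °C, 1.5 and 1.52 at 13 °C, against 0 and 0.173 at 25 °C, with changes of 2.57 ± 0.25 (adjusted p = 0.000132) and 1.21 ± 0.25 (adjusted p = 0.00556).

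The ATL43-type locus LOC_Os01g11460 (chromosome 1, 6171722 to 6173186, minus strand) was mainly a 13 °C gene. In Arabidopsis ATL43 is known from mutants with an altered response to abscisic acid. The rice locus had 12.5 and 18.1 RPKM at 13 °C, 0.922 and 1.13 at 11 °C, compared with 0.0428 and 0 at 25 °C. The groups did not overlap, and the 13 °C level was 14.9 times that at 11 °C (-2.99 ± 0.25 for 11 °C against 13 °C, adjusted p = 0.000174). Its rise at 13 °C was 3.98 ± 0.25 (adjusted p = 2.66e-05). The smaller rise at 11 °C, 0.99 ± 0.25 (adjusted p = 0.0114), was not called without replicate 2 at 11 °C (adjusted p = 0.0703) or at 25 °C (adjusted p = 0.0584).

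LOC_Os02g15110 (ATL32-type) had a related course at lower levels. Its RPKM was 4.12 and 5.32 at 13 °C, 0.352 and 0.213 at 11 °C, against 0.125 and 0.653 at 25 °C. The 13 °C libraries stood apart while those at 11 °C lay within the range of the 25 °C pair. The rise at 13 °C was 2.06 ± 0.24 (adjusted p = 0.000404), and the change at 11 °C was -0.09 ± 0.24 (adjusted p = 0.78). It met the expression rule through the 13 °C libraries alone.

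A larger set of RING-H2 loci rose at 11 °C and had no called change at 13 °C against 25 °C. LOC_Os05g39260 (ATL57-type; chromosome 5, 23020500 to 23021809, plus strand) had the highest mean level of the RING-H2 loci. It measured 66.8 and 78.5 RPKM at 11 °C, 10.3 and 13.2 at 13 °C, compared with 12.7 and 13.6 at 25 °C. The 11 °C libraries were far above the rest and the 13 and 25 °C libraries overlapped. The mean at 11 °C was 5.54 times that at 25 °C (2.38 ± 0.22, adjusted p = 0.000113) and 6.17 times that at 13 °C (adjusted p = 0.000227), while the change at 13 °C was -0.15 ± 0.22 (adjusted p = 0.62).

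The other ATL57-type locus, LOC_Os01g11520, went the same way, at 7.33 and 7.13 RPKM at 11 °C, 1.19 and 1.29 at 13 °C, against 0.857 and 1.18 at 25 °C, a 7.08-fold rise at 11 °C (2.03 ± 0.22, adjusted p = 0.000202). LOC_Os06g09310 (ATL60-type) had 10.6 and 15.7 RPKM at 11 °C, 1.03 and 1.25 at 13 °C, compared with 0.293 and 0.693 at 25 °C. Its rise at 11 °C was 26.7-fold (3.23 ± 0.27, adjusted p = 6.89e-05), and its change at 13 °C of 0.53 ± 0.27 did not pass (adjusted p = 0.153). LOC_Os02g36330 is of the type of ATL54, which in Arabidopsis is linked to secondary cell wall formation. It was at 14.1 and 14.8 RPKM at 11 °C, 2.83 and 2.72 at 13 °C, against 3.38 and 0.926 at 25 °C. The rise at 11 °C was 6.7-fold (2.41 ± 0.37, adjusted p = 0.00121). Its change at 13 °C, 0.38 ± 0.37 (adjusted p = 0.455), depended on the 25 °C library used. It was 0.97 without replicate 1 and -0.21 without replicate 2 at 25 °C.

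LOC_Os02g46100, an ATL80-type locus (chromosome 2, 28096979 to 28098033, minus strand), was near 0 in all libraries but those at 11 °C. ATL80 itself is described in Arabidopsis as a negative regulator of phosphate mobilization and of the cold response. The rice locus read 4.12 and 4.85 RPKM at 11 °C, 0 and 0.152 at 13 °C, compared with 0.0594 and 0.155 at 25 °C. The change was 2.31 ± 0.19 against 25 °C (adjusted p = 6.16e-05) and 2.35 ± 0.19 against 13 °C (adjusted p = 0.000158). It is among the loci that met the expression rule through the 11 °C libraries alone.

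The 5 ATL80-type loci did not share 1 course. LOC_Os02g58540 rose at both temperatures, from 5.81 and 4.29 RPKM at 25 °C to 19.3 and 26.4 at 11 °C, with 14.6 and 14.5 at 13 °C, with changes of 1.97 and 1.37. LOC_Os09g38110 also rose at both, by 1.72 and 0.92, from 0.132 and 0.288 RPKM at 25 °C, although its rise at 13 °C was lost in 5 of the alternative settings, with adjusted p-values of up to 0.156. LOC_Os12g05370 fell at 13 °C by 1.41 on the log2 scale. LOC_Os10g39450 was called in none of the comparisons, with 22.1 and 6.6 RPKM in the 25 °C libraries.

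**Figure D2:**
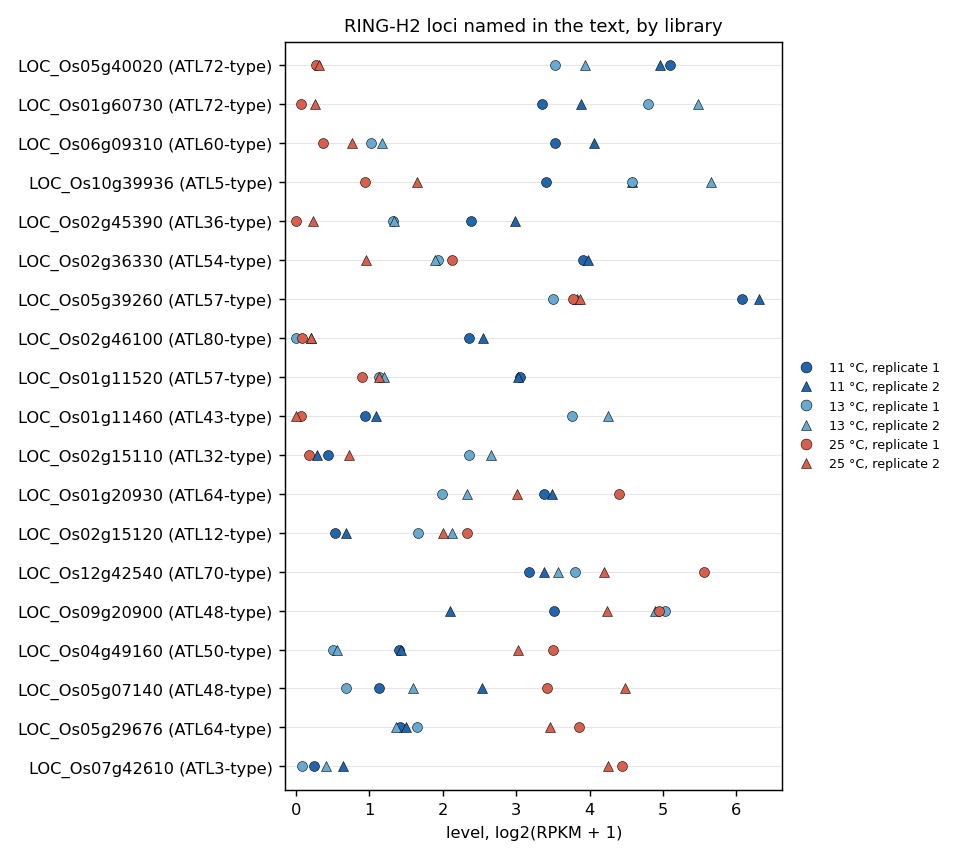
Level of the named RING-H2 loci in each of the 6 libraries, as log2(RPKM + 1). The ATL72-type loci LOC_Os05g40020 and LOC_Os01g60730 are near 0 at 25 °C and high in all 4 cold libraries, LOC_Os02g46100 is high in the 11 °C libraries only, and LOC_Os07g42610 is high in the 25 °C libraries only.

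The deepest fall among all 101 loci was that of LOC_Os07g42610 (ATL3-type; chromosome 7, 25501316 to 25505299, minus strand). It had 20.7 and 18.0 RPKM at 25 °C, 0.182 and 0.552 at 11 °C, with 0.061 and 0.331 at 13 °C. The cold libraries overlapped with each other and were all under 1 RPKM, so the locus met the expression rule through the 25 °C libraries alone. Its mean was 52.8 times lower at 11 °C (-3.91 ± 0.25, adjusted p = 2.6e-05), a fold that rests on 13 reads in the 11 °C libraries. The change at 13 °C was -4.1 ± 0.25 (adjusted p = 2.54e-05). The other ATL3-type locus, LOC_Os03g28080, had 5.79 and 6.77 RPKM at 25 °C and 5.75 and 9.85 at 11 °C, and 1.6 and 2.82 at 13 °C.

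Another 4 RING-H2 loci fell at both low temperatures. LOC_Os04g49160 (ATL50-type) went from 10.3 and 7.17 RPKM at 25 °C to 1.64 and 1.7 at 11 °C, with 0.423 and 0.468 at 13 °C. It was lowest at 13 °C, 19.6 times below 25 °C (-2.73 ± 0.24, adjusted p = 0.000105), and 5.23 times below it at 11 °C (-1.85 ± 0.24, adjusted p = 0.000503). The difference between the cold temperatures, 0.89 ± 0.24 (adjusted p = 0.023), was lost when any library of these 4 was left out, with adjusted p-values of 0.0845 to 0.109. LOC_Os05g29676 (ATL64-type) went from 13.5 and 10 RPKM to 1.67 and 1.82 at 11 °C, with 2.12 and 1.57 at 13 °C, falls of 6.73 times (adjusted p = 0.000286) and 6.37 times (adjusted p = 0.000399).

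The remaining shared falls were less even between replicates. LOC_Os05g07140 (ATL48-type) had 9.72 and 21.4 RPKM at 25 °C, 1.19 and 4.77 at 11 °C, with 0.595 and 2.02 at 13 °C, with replicate 2 the higher at each temperature. Its change was -2.12 ± 0.55 at 11 °C (adjusted p = 0.013) and -2.82 ± 0.55 at 13 °C (adjusted p = 0.00414). The call at 11 °C was lost without replicate 1 at 11 °C (adjusted p = 0.0689) or replicate 2 at 25 °C (adjusted p = 0.0861). LOC_Os12g42540 (ATL70-type) rested in part on replicate 1 at 25 °C, with 46.4 and 17.3 RPKM there, 8.06 and 9.41 at 11 °C, with 12.9 and 10.9 at 13 °C. Its change of -1.6 ± 0.41 at 11 °C (adjusted p = 0.0126) was -0.91 without that library (adjusted p = 0.0445) and was not called without replicate 1 at 11 °C (adjusted p = 0.051). Its change of -1.19 ± 0.41 at 13 °C (adjusted p = 0.046) was -0.51 without the same 25 °C library (adjusted p = 0.223); leaving out the other 25 °C library gave -1.88 (adjusted p = 0.0036). This call was lost without any 1 of the other libraries, at adjusted p-values from 0.0543 to 0.151.

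Falls called at 11 °C and not at 13 °C were led by LOC_Os09g20900 and LOC_Os02g15120. LOC_Os09g20900, the second ATL48-type locus, had 10.4 and 3.28 RPKM at 11 °C, 31.6 and 28.8 at 13 °C, against 29.8 and 17.8 at 25 °C. The 13 °C and 25 °C libraries overlapped and the 11 °C libraries lay below both. The change against 25 °C was -1.78 ± 0.45 (adjusted p = 0.0117); it was -1.08 without replicate 2 at 11 °C (adjusted p = 0.0502) and was also lost without replicate 1 at 25 °C (adjusted p = 0.0808). LOC_Os02g15120 (ATL12-type) stood at 0.441 and 0.6 RPKM at 11 °C, 2.16 and 3.35 at 13 °C, compared with 4.05 and 3.02 at 25 °C, a 6.79-fold lower mean at 11 °C than at 25 °C (-1.57 ± 0.25, adjusted p = 0.00137).

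LOC_Os01g20930 (ATL64-type) fell at 13 °C and did not pass at 11 °C, and its results depended on single libraries. It had 9.37 and 10.2 RPKM at 11 °C, 2.98 and 4.01 at 13 °C, against 20.2 and 7.07 at 25 °C. The fall at 13 °C, -1.55 ± 0.42 (adjusted p = 0.0194), was -0.85 without replicate 1 at 25 °C (adjusted p = 0.0807) and was not called without replicate 1 at 13 °C (adjusted p = 0.0796). Its change at 11 °C was -0.98 without replicate 2 at 25 °C (adjusted p = 0.0437). Its higher level at 11 °C than at 13 °C (1.27 ± 0.42, adjusted p = 0.0489) was lost without any 1 of those 4 libraries, at adjusted p-values of 0.0885 to 0.171.

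Among U-box loci, the PUB33-type locus LOC_Os09g39620 (chromosome 9, 22736559 to 22741162, plus strand) had the largest rise. Its levels were 9.87 and 15.9 RPKM at 11 °C, 1.81 and 2.63 at 13 °C, compared with 0.0729 and 0.254 at 25 °C. The 3 groups did not overlap, and each lower temperature had a higher level. The mean at 11 °C was 78.8 times that at 25 °C (3.55 ± 0.29, adjusted p = 6.17e-05), and at 13 °C it was 13.6 times that level (1.46 ± 0.29, adjusted p = 0.00449). Both folds rest on 15 reads in the 25 °C libraries and are imprecise. The level at 11 °C was 5.8 times that at 13 °C (adjusted p = 0.00132).

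LOC_Os06g13870, of the type of PUB21, and LOC_Os06g11990, of the type of PUB10, rose at both low temperatures. PUB10 of Arabidopsis is known for marking the jasmonate regulator MYC2 for breakdown. LOC_Os06g13870 went from 0.174 and 0.189 RPKM at 25 °C to 6.36 and 9.91 at 11 °C (2.92 ± 0.33, adjusted p = 0.000267) and 3.31 and 6.66 at 13 °C (2.28 ± 0.33, adjusted p = 0.00105). LOC_Os06g11990 went from 1.71 and 2.87 RPKM to 13.3 and 15.4 at 11 °C (6.28-fold, adjusted p = 0.000319) and 10.3 and 11.7 at 13 °C (4.81-fold, adjusted p = 0.000873). For both loci the libraries of 11 and 13 °C were well above those of 25 °C, and the difference between the cold temperatures did not pass (adjusted p = 0.172 and 0.336).

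LOC_Os02g57700 (PUB33-type) behaved in the same way, from 0.449 and 0.373 RPKM at 25 °C to 4.04 and 5.4 at 11 °C (11.5-fold, adjusted p = 0.000278) and 3.8 and 4.26 at 13 °C (9.81-fold, adjusted p = 0.000535). LOC_Os05g39930 (PUB16-type) had 3.01 and 3.5 RPKM at 11 °C, 4.99 and 7.68 at 13 °C, against 1.33 and 0.869 at 25 °C. The groups did not overlap, and the rise was 5.76-fold at 13 °C (1.79 ± 0.27, adjusted p = 0.00127). Its rise at 11 °C (1.03 ± 0.27, adjusted p = 0.0146) was lost without replicate 2 at 11 °C (adjusted p = 0.0792) or at 25 °C (adjusted p = 0.0861).

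The U-box loci with a rise called at 11 °C and not at 13 °C included the only PUB26-type locus. PUB26 of Arabidopsis, with its partner PUB25, degrades the transcription factor MYB15 in the cold and so favours freezing tolerance. The rice locus, LOC_Os02g34410 (chromosome 2, 20588271 to 20589687, minus strand), had 21.7 and 6.25 RPKM at 11 °C, 2.46 and 1.02 at 13 °C, compared with 1.81 and 0.308 at 25 °C. Replicate 1 was higher than replicate 2 at every temperature, and the lower 11 °C library was still above all 4 others. The mean rose 13.2-fold at 11 °C (2.74 ± 0.58, adjusted p = 0.00522), and the change at 13 °C was 0.46 ± 0.58 (adjusted p = 0.559). Its difference between 11 and 13 °C, 2.28 ± 0.58 (adjusted p = 0.0176), was 1.46 without replicate 1 at 11 °C (adjusted p = 0.0689) and was not called without replicate 2 at 13 °C (adjusted p = 0.081).

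LOC_Os03g45420 is a locus of the type of PUB44, known in Arabidopsis as SAUL1, a ligase that holds back premature senescence. It was at 14.7 and 17.7 RPKM at 11 °C, 5.44 and 5.06 at 13 °C, against 5.14 and 3.86 at 25 °C, a 3.6-fold rise at 11 °C (1.65 ± 0.25, adjusted p = 0.00102). LOC_Os06g37620 (PUB34-type) had 14.4 and 21.8 RPKM at 11 °C, 3.03 and 4.77 at 13 °C, compared with 4.81 and 4.39 at 25 °C, a 3.93-fold rise (1.74 ± 0.3, adjusted p = 0.0019). LOC_Os10g03440 (PUB20-type) had 2.97 and 3.86 RPKM at 11 °C, 0.554 and 0.54 at 13 °C, against 0.77 and 1.3 at 25 °C, a 3.3-fold rise (1.12 ± 0.22, adjusted p = 0.00396). In these 3 loci both 11 °C libraries were above the other 4, and the change at 13 °C did not pass the test (adjusted p = 0.568, 0.598 and 0.204).

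Both loci that matched the rice protein named PUB12 were higher in the cold. LOC_Os09g05030 had 7.72 and 13.2 RPKM at 11 °C, 3.21 and 3.7 at 13 °C, compared with 1.21 and 2.13 at 25 °C, with no overlap between the groups. It rose 6.25-fold at 11 °C (2.08 ± 0.31, adjusted p = 0.00106), while the change at 13 °C was 0.76 ± 0.31 (adjusted p = 0.0868). Its level at 11 °C was above that at 13 °C (1.32 ± 0.31, adjusted p = 0.0137), which was lost without replicate 2 at 11 °C (adjusted p = 0.0903) or replicate 1 at 13 °C (adjusted p = 0.0663).

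The second of them, LOC_Os06g01304, was at 28.4 and 41.2 RPKM at 11 °C, 23.9 and 28.6 at 13 °C, against 12.8 and 16.9 at 25 °C. Both cold groups were above the 25 °C libraries and close to each other. The rise was 1.16 ± 0.26 at 11 °C (adjusted p = 0.00723), not called without replicate 2 at 11 °C (adjusted p = 0.0588). At 13 °C it was 0.79 ± 0.26 (adjusted p = 0.0417), not called without replicate 1 at 13 °C (adjusted p = 0.0822), replicate 2 at 13 °C (adjusted p = 0.196) or replicate 1 at 25 °C (adjusted p = 0.183).

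LOC_Os02g28720 (PUB9-type) had the highest mean level of the U-box loci at 11 °C, at 50.4 and 68.7 RPKM there, 31.9 and 40.8 at 13 °C, compared with 25.9 and 27.7 at 25 °C. It rose 2.22-fold at 11 °C (1.11 ± 0.24, adjusted p = 0.00592), a call not made without replicate 2 at 11 °C (adjusted p = 0.0514). Its change at 13 °C was 0.42 ± 0.24 (adjusted p = 0.2).

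**Figure D3:**
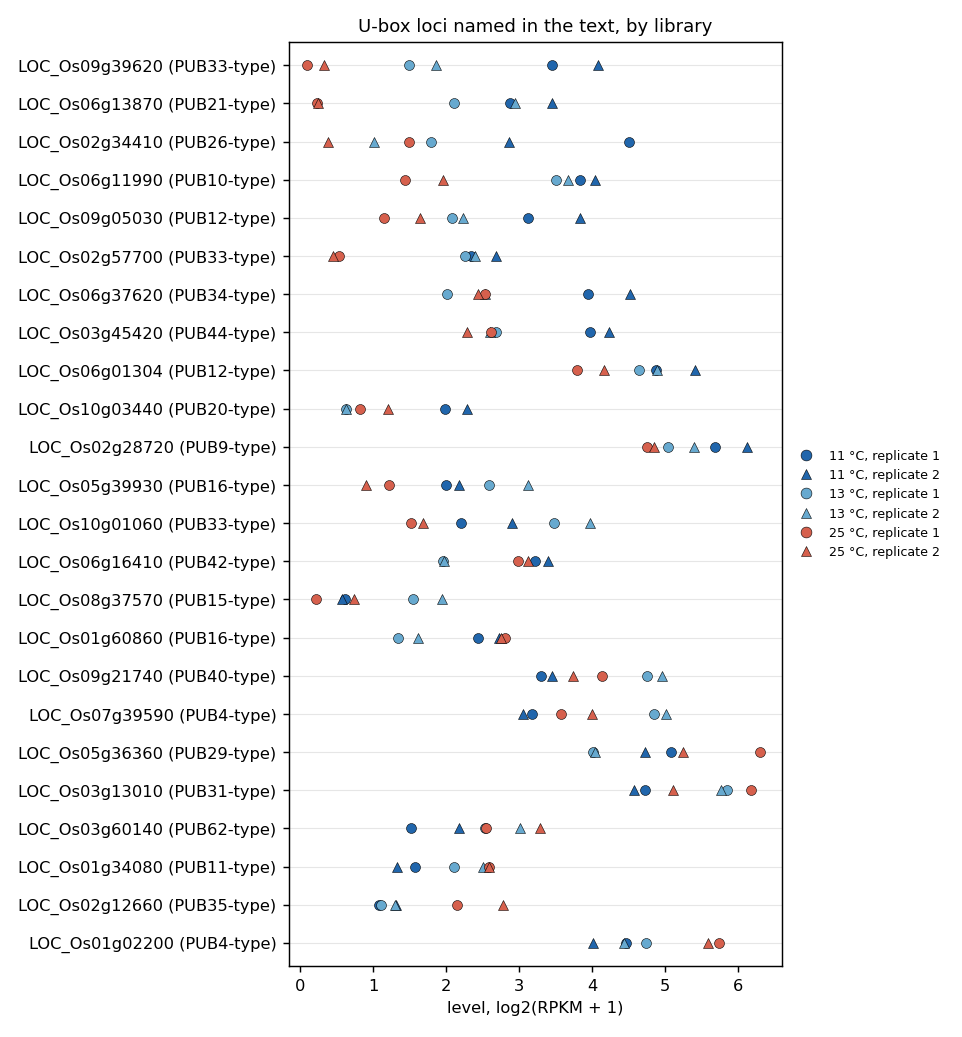
Level of the named U-box loci in each of the 6 libraries, as log2(RPKM + 1). LOC_Os09g39620 rises stepwise from 25 °C to 13 °C to 11 °C, LOC_Os02g34410 shows the wide gap between its replicates, and LOC_Os07g39590 is highest in the 13 °C libraries, at 27.8 and 31.2 RPKM.

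With no further scaling and no term for the replicate number, 1 locus of the 101 was called in opposite directions at the 2 low temperatures. This was the PUB4-type locus LOC_Os07g39590 (chromosome 7, 23721772 to 23724795, plus strand). Among all tested loci a fall at 11 °C with a rise at 13 °C was found at 1.01%, and the reverse at 0.679%. The locus had 7.99 and 7.33 RPKM at 11 °C, 27.8 and 31.2 at 13 °C, against 10.9 and 14.9 at 25 °C, and the groups did not overlap. It rose 2.28-fold at 13 °C (1.14 ± 0.24, adjusted p = 0.00554), and its level at 11 °C was 3.85 times lower than at 13 °C (-1.82 ± 0.24, adjusted p = 0.00103). The fall at 11 °C against 25 °C was small (-0.67 ± 0.24, adjusted p = 0.0451). It was lost without either library at 11 °C (adjusted p = 0.111 and 0.175), either at 13 °C (0.0783 and 0.0776) or replicate 2 at 25 °C (0.202).

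Other U-box loci were also highest at 13 °C. LOC_Os10g01060 (PUB33-type) was at 3.62 and 6.47 RPKM at 11 °C, 10.1 and 14.6 at 13 °C, compared with 1.87 and 2.2 at 25 °C, a 6.08-fold rise at 13 °C (2.12 ± 0.31, adjusted p = 0.00113). Its rise at 11 °C (0.95 ± 0.31, adjusted p = 0.0352) was 0.61 without replicate 2 at 11 °C (adjusted p = 0.23) and was not called without either 25 °C library (adjusted p = 0.133 and 0.0867). The lower level at 11 °C than at 13 °C (-1.16 ± 0.31, adjusted p = 0.0225) was not called without replicate 1 at 11 °C (adjusted p = 0.14) or replicate 2 at 13 °C (adjusted p = 0.136).

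LOC_Os08g37570 (PUB15-type) had 1.92 and 2.83 RPKM at 13 °C, 0.537 and 0.487 at 11 °C, against 0.163 and 0.664 at 25 °C, a 5.75-fold rise at 13 °C (1.27 ± 0.24, adjusted p = 0.0035). Its 11 °C libraries lay within the range of the 25 °C pair, and it met the expression rule through the 13 °C libraries alone. LOC_Os09g21740 is of the type of PUB40, which in Arabidopsis roots acts on the brassinosteroid regulator BZR1. It had 26 and 29.9 RPKM at 13 °C, 8.82 and 9.91 at 11 °C, compared with 16.5 and 12.3 at 25 °C, and was 2.99 times lower at 11 °C than at 13 °C (-1.48 ± 0.24, adjusted p = 0.0024). Its change at 11 °C against 25 °C was -0.56 ± 0.24 (adjusted p = 0.0798). That change was a called fall under median-of-ratios (-0.7, adjusted p = 0.0295) and quantile scaling (-0.69, adjusted p = 0.0268). A fall was also called when the replicate number was added to the fit (-0.56, limma adjusted p = 0.0226). Both scalings and that fit kept its rise at 13 °C, so there this locus too was called in opposite directions. Its rise at 13 °C (0.92 ± 0.24, adjusted p = 0.0148) was not called without replicate 2 at 13 °C (adjusted p = 0.0993) or at 25 °C (adjusted p = 0.076).

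Only 2 U-box loci fell at both low temperatures. The PUB4-type locus LOC_Os01g02200 had 52.3 and 46.8 RPKM at 25 °C, 21.0 and 15.1 at 11 °C, with 25.7 and 20.6 at 13 °C. It was 2.74 times lower at 11 °C (-1.42 ± 0.24, adjusted p = 0.00189) and 2.14 times lower at 13 °C (-1.07 ± 0.24, adjusted p = 0.00842), the latter not called without replicate 2 at 13 °C (adjusted p = 0.0653). The other was LOC_Os02g12660 (PUB35-type), at 3.45 and 5.86 RPKM at 25 °C, 1.12 and 1.48 at 11 °C, with 1.16 and 1.46 at 13 °C, with falls of 3.59 times (adjusted p = 0.00524) and 3.55 times (adjusted p = 0.00633). This locus overlaps the PUB35-type locus LOC_Os02g12654 on the other strand by 1670 bases, and without a stated use of strand their reads cannot be told apart.

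Falls called at 11 °C and not at 13 °C included LOC_Os01g34080, of the type of PUB11, which in Arabidopsis restrains drought responses. It had 1.99 and 1.51 RPKM at 11 °C, 3.3 and 4.69 at 13 °C, against 4.99 and 5.03 at 25 °C, and was 2.87 times lower than at 25 °C (-1.13 ± 0.25, adjusted p = 0.00661), not called without replicate 2 at 11 °C (adjusted p = 0.0544). Its lower level at 11 °C than at 13 °C (-0.85 ± 0.25, adjusted p = 0.0317) was lost without any 1 of those 4 libraries, at adjusted p-values of 0.0523 to 0.198. LOC_Os03g60140 (PUB62-type) had 1.87 and 3.52 RPKM at 11 °C, 4.81 and 7.05 at 13 °C, compared with 4.85 and 8.71 at 25 °C, with replicate 2 the higher throughout. Its change of -1.07 ± 0.35 at 11 °C (adjusted p = 0.0368) was lost without replicate 1 at 11 °C (adjusted p = 0.199) and was -0.7 without replicate 2 at 25 °C (adjusted p = 0.202).

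LOC_Os03g13010 (PUB31-type) was an abundant U-box locus, at 25.5 and 22.8 RPKM at 11 °C, 56.2 and 53.1 at 13 °C, against 70.9 and 33.4 at 25 °C. Its 13 °C libraries lay between the pair at 25 °C. The fall at 11 °C, -0.99 ± 0.33 (adjusted p = 0.0386), was -0.45 without replicate 1 at 25 °C (adjusted p = 0.17); leaving out replicate 2 instead gave -1.52 (adjusted p = 0.0034). It was not called without either 11 °C library (adjusted p = 0.0833 and 0.137) or under median-of-ratios scaling (adjusted p = 0.053). The difference between 11 and 13 °C, -1.15 ± 0.33 (adjusted p = 0.0296), was lost without any 1 of those 4 libraries, at adjusted p-values of 0.0741 to 0.116.

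Falls called at 13 °C and not at 11 °C were found at LOC_Os05g36360, LOC_Os01g60860 and LOC_Os06g16410 among the named loci. LOC_Os05g36360 (PUB29-type) had 32.9 and 25.5 RPKM at 11 °C, 15.1 and 15.4 at 13 °C, compared with 77.3 and 36.7 at 25 °C, 3.74 times lower at 13 °C (-1.74 ± 0.34, adjusted p = 0.00436; -1.21 without replicate 1 at 25 °C, adjusted p = 0.016). Its change at 11 °C, -0.86 ± 0.34, did not pass (adjusted p = 0.0678). It was -0.33 without replicate 1 at 25 °C (adjusted p = 0.361); leaving out the other 25 °C library gave -1.39 (adjusted p = 0.00735). LOC_Os01g60860 (PUB16-type) had 4.43 and 5.58 RPKM at 11 °C, 1.54 and 2.05 at 13 °C, against 6.0 and 5.75 at 25 °C, 3.27 times lower at 13 °C (-1.3 ± 0.24, adjusted p = 0.00349). Its higher level at 11 °C than at 13 °C (1.1 ± 0.24, adjusted p = 0.0102) was not called without replicate 2 at 11 °C (adjusted p = 0.0769) or replicate 1 at 13 °C (adjusted p = 0.0774). LOC_Os06g16410 (PUB42-type) had 8.27 and 9.53 RPKM at 11 °C, 2.88 and 2.92 at 13 °C, compared with 6.93 and 7.69 at 25 °C, 2.52 times lower at 13 °C (-1.09 ± 0.23, adjusted p = 0.00646).

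The 101 loci carried 58 different best matches, and 10 of these were shared by at least 3 loci. The largest group was PUB33, with 11 loci, of which 4 rose at 11 °C, 5 rose at 13 °C and none fell against 25 °C. Of all tested loci 28.7% rose and 21.4% fell at 11 °C, and 26.4% and 17.0% at 13 °C. The rise at 11 °C was lost in 4 of the alternative settings for LOC_Os10g01060 and in 5 for LOC_Os11g40400. The latter met the expression rule through the 13 °C libraries alone. Between 11 °C and 13 °C, 1 of the 11 was higher and 4 lower at 11 °C, against 17.3% and 18.2% of all tested loci. Each of the 4 lower calls was lost in at least 2 settings. Changes of the 11 loci ranged from -0.53 to 3.55 at 11 °C and from -0.63 to 2.12 at 13 °C. The 6 loci matching Arabidopsis PUB4 were mixed, with 1 rise and 2 falls at 11 °C and 1 rise and 1 fall at 13 °C. LOC_Os02g13960 matched a rice protein that is also named PUB4 and is counted apart from them. All 3 PUB34-type loci rose at 11 °C, by 1.08 to 1.74, and all 3 were higher at 11 °C than at 13 °C, by 0.81 to 1.96. The latter call was lost in 2 settings for LOC_Os01g39970 (adjusted p of up to 0.0668) and in 1 for LOC_Os02g05820 (adjusted p = 0.0501). Of the 3, 1 rose at 13 °C, a call lost in 8 of the alternative settings. LOC_Os02g05820 met the expression rule through the 11 °C libraries alone, the group in which it was high. Of the 3 PUB35-type loci 2 fell at 11 °C and none rose, with changes of -1.27 to -0.66. The reads of LOC_Os02g12654 and LOC_Os02g12660, which overlap, cannot be told apart, as given above. The fall of LOC_Os06g18820 was lost in 3 of the alternative settings. The 3 ATL64-type loci included 1 rise and 1 fall at 11 °C and 2 falls at 13 °C. Loci with the same best match may share reads, and the counting of such reads is not described in the sources used here.

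The table's own gene ontology terms were carried over from the best matches, which also gave the family names. Their split between the families therefore follows from the matches and is not a separate result. All 40 RING-H2 loci were annotated as integral to the membrane and as zinc-binding, whereas no U-box locus had the membrane term and 1 had the zinc term. A protein serine/threonine kinase term was present for 19 of the 61 U-box loci, all of them PUB33-, PUB34-, PUB35-, PUB52- or PUB53-type. Of these 19, 8 rose and 2 fell at 11 °C, 6 rose and 2 fell at 13 °C, and 5 were higher and 5 lower at 11 °C than at 13 °C. These are 42.1% and 10.5% at 11 °C, where 28.7% of all tested loci rose and 21.4% fell, and 31.6% and 10.5% at 13 °C, where 26.4% rose and 17.0% fell. Between 11 °C and 13 °C they are 26.3% each, where 17.3% of all tested loci were higher and 18.2% lower at 11 °C. Of the 42 U-box loci without the term, 15 rose and 6 fell at 11 °C, and 9 rose and 7 fell at 13 °C. Their shares were 35.7% rising and 14.3% falling at 11 °C, and 21.4% and 16.7% at 13 °C. Of the same 42, 11 were higher (26.2%) and 5 lower (11.9%) at 11 °C than at 13 °C. Both sets include loci that met the expression rule through 1 temperature alone. Among the 19 these were LOC_Os02g05820 at 11 °C and LOC_Os11g40400 at 13 °C. The difference between the 2 sets was not tested. The response-to-chitin term was carried by 14 loci, the 5 ATL80-type loci and 9 U-box loci of the PUB11, PUB16, PUB20, PUB21 and PUB29 types. Of the 14, 8 rose and 1 fell at 11 °C with a median change of 1.08 (0.13 over all tested loci). That is 57.1% rising and 7.14% falling. The 8 rises include LOC_Os02g46100 and LOC_Os02g50460, which met the expression rule through the 11 °C libraries alone. At 13 °C, 4 of the 14 rose and 3 fell (28.6% and 21.4%) with a median of 0.18 (0.12).

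Members of the families often lay close together on the chromosomes. Within 50000 bases of each other were 14 neighbouring pairs, which held 26 of the 101 loci. LOC_Os05g39930 and LOC_Os05g40020, 44320 bases apart, both rose at 11 °C and at 13 °C, and some pairs were called in none of the comparisons. Neighbours did not always move together. The ATL32-type locus LOC_Os02g15110 rose at 13 °C, and the ATL12-type locus LOC_Os02g15120, 5203 bases away on the other strand, fell at 11 °C. Both, however, were lower at 11 °C than at 13 °C, by changes of -2.15 and -1.29. The ATL43-type and ATL57-type loci LOC_Os01g11460 and LOC_Os01g11520, 25971 bases apart, were high at 13 °C and at 11 °C respectively. Against 25 °C both of these rose at 11 °C, by 0.99 and 2.03.

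On chromosome 9, 3 PUB33-type loci stand in a row on the plus strand. The first, LOC_Os09g39620, is the locus with the 78.8-fold rise at 11 °C. The second, LOC_Os09g39640, lay between 2.88 and 4.98 RPKM in all 6 libraries and was called in none of the comparisons. The third, LOC_Os09g39650, had 0.896 and 1.99 RPKM at 11 °C, 3.67 and 4.72 at 13 °C, against 0.584 and 1.27 at 25 °C, and rose at 13 °C by 1.45. Its lower level at 11 °C than at 13 °C, a change of -1.12, was lost in 3 of the alternative settings, with adjusted p-values of up to 0.129.

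The 2 ATL64-type neighbours on chromosome 1, 1514 bases apart, differed mainly at 25 °C. LOC_Os01g20910 had 8.7 and 11.0 RPKM at 11 °C, 2.68 and 4.18 at 13 °C, compared with 1.59 and 2.31 at 25 °C, and rose at 11 °C by 1.88. LOC_Os01g20930, described above, had like levels at 11 and 13 °C but 20.2 and 7.07 RPKM at 25 °C.

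**Figure D4:**
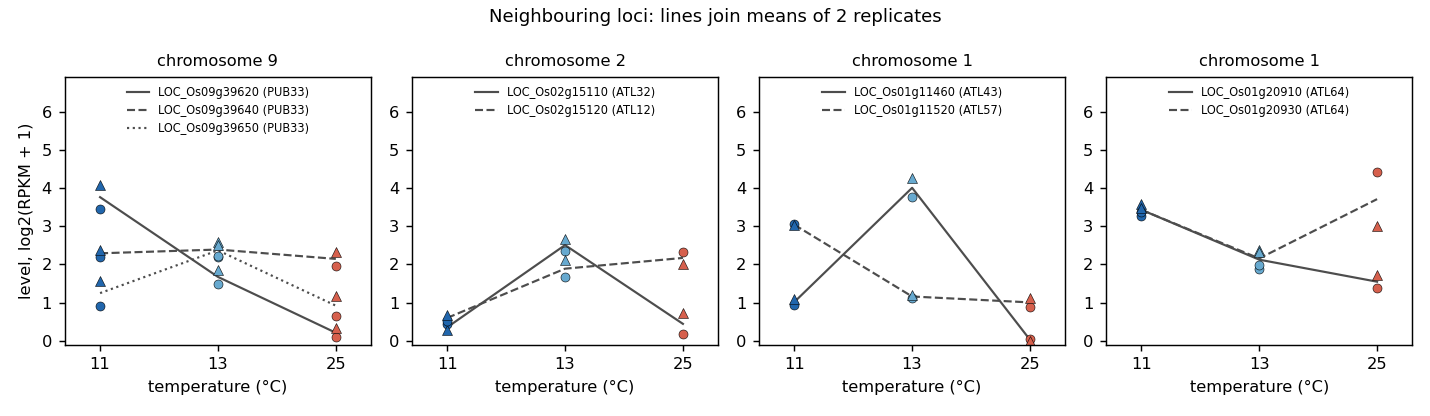
Levels, as log2(RPKM + 1), of ligase loci that neighbour each other, at 11, 13 and 25 °C (equally spaced on the axis, not to scale), in 4 clusters chosen after their values were seen; circles are replicate 1, triangles replicate 2, and lines join the means of the log2 values. The neighbours in these chosen clusters take different courses, such as LOC_Os09g39620 with its 78.8-fold rise at 11 °C beside the level course of LOC_Os09g39640.

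The typical level of each family was highest at 11 °C. The median over the 40 RING-H2 loci of the mean RPKM was 4.91 at 11 °C, 2.77 at 13 °C and 2.73 at 25 °C. For the 61 U-box loci it was 5.4, 3.94 and 4.16. All tested loci had medians of 7.9, 7.87 and 7.05, so both families lay below the median tested locus per length. RING-H2 loci were also short, with a median recovered length of 1138.5 bases against 2715 for U-box loci, so the same RPKM rests on fewer reads. The recovered length equalled the whole locus span, within 2%, for 29 of the 40 RING-H2 loci and 17 of the 61 U-box loci.

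Replicates differed most at 25 °C. There, 11 of the 101 loci differed more than 2-fold between the libraries on the RPKM + 1 scale, 10 of them with replicate 1 the higher, against 4 at 11 °C and 1 at 13 °C. LOC_Os12g42540, LOC_Os03g13010, LOC_Os05g36360 and LOC_Os01g20930, described above, all had such a higher replicate 1 at 25 °C and their values without that library are given where each is described. Besides the PUB35-type pair, LOC_Os01g60850, LOC_Os03g01160 and LOC_Os03g02580 overlap a locus on the other strand, so their values are uncertain.

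The rest of the ubiquitin system was described with 9 lists made from the descriptions, whose shares are read against the 28.7% rising and 21.4% falling at 11 °C, and 26.4% and 17.0% at 13 °C, of all tested loci. Of the 12 loci for ubiquitin itself, 5 rose (41.7%) and 1 fell at 11 °C, and 8 rose (66.7%) and 1 fell at 13 °C, with a median change of 0.84 at 13 °C. The 8 rises were 5 without replicate 1 and 4 without replicate 2 at 13 °C. Under median-of-ratios and quantile scaling the 13 °C counts became 5 and 3, and 6 and 4. Polyubiquitin 3 (LOC_Os04g53620) rose from 43.1 ± 0.539 to 214.0 ± 34.1 RPKM at 11 °C (mean ± SD, n = 2; limma adjusted p = 0.000108). Polyubiquitin 4 (LOC_Os02g06640) was the 1 that fell, from 451.0 ± 92.2 RPKM to 221.0 ± 17.9 at 11 °C (adjusted p = 0.00857) and 189.0 ± 6.42 at 13 °C (adjusted p = 0.00391). Its fall at 11 °C was not called without replicate 1 at 11 °C (adjusted p = 0.0609).

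The enzymes upstream of the ligases went different ways. Of 4 E1 loci, 1 rose at 11 °C and 2 at 13 °C, and none fell; under quantile scaling 1 rose and 1 fell at 11 °C. LOC_Os03g18380 (E1 3) rose from 1.49 ± 0.279 RPKM at 25 °C to 7.41 ± 0.78 at 11 °C (SD, n = 2; limma adjusted p = 0.000721). Of 31 E2 loci, the direct partners of the ligases, 1 rose and 9 fell at 11 °C (29.0% falling), and 2 rose and 5 fell at 13 °C (16.1% falling), where both scalings gave 2 rises and 9 or 10 falls. The 9 falls were 3 without replicate 1 at 11 °C, without either 13 °C library or with only the 4 libraries compared, and 4 without replicate 2 at 11 °C or without a filter. The 5 falls at 13 °C were 2 without either 13 °C library. LOC_Os02g02830 (E2 28) fell from 43.4 ± 16.0 to 7.24 ± 1.23 RPKM at 11 °C (adjusted p = 0.000346). LOC_Os05g48390 (E2 24) rose from 5.48 ± 1.27 to 22.4 ± 4.02 RPKM at 13 °C (adjusted p = 0.00102).

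Deubiquitinases, which remove ubiquitin, counted 12 rises (33.3%) and 2 falls (5.56%) among 36 at 11 °C and 4 rises (11.1%) with no fall at 13 °C. The 12 rises were 2 without replicate 2 at 11 °C, 3 and 6 without replicates 1 and 2 at 25 °C, and 7 without a filter. The 4 rises at 13 °C were 2 and 0 without replicates 1 and 2 at 13 °C, 0 and 1 without replicates 1 and 2 at 25 °C, and 1 without a filter. Median-of-ratios and quantile scaling gave 12 and 4 at 11 °C, and 4 and 2 or 5 and 4 at 13 °C. LOC_Os08g37350 (ubiquitin carboxyl-terminal hydrolase 17) rose from 13.7 ± 1.36 to 37.2 ± 8.0 RPKM at 11 °C (SD, n = 2; limma adjusted p = 0.00238).

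The parts of cullin-RING ligases, which build larger complexes around exchangeable adaptors, were mixed. Of 21 core loci, 6 rose (28.6%) and 3 fell (14.3%) at 11 °C, and 3 rose (14.3%) and 2 fell (9.52%) at 13 °C, where the scalings gave 3 and 6 or 3 and 5. The 6 core rises were 3 without replicate 2 at 11 °C, the 3 falls were 1 without replicate 1 at 11 °C or replicate 2 at 25 °C, and the 3 rises at 13 °C were 1 without replicate 2 at 13 °C or replicate 1 at 25 °C. Of 92 F-box adaptors, 29 rose (31.5%) and 13 fell (14.1%) at 11 °C, against 29 and 23 or 28 and 24 with scaling, and 23 rose (25.0%) and 14 fell (15.2%) at 13 °C, against 22 and 22 with quantile scaling. Leaving out 1 library gave 13 to 27 F-box rises and 4 to 11 falls at 11 °C, with the fewest rises without replicate 2 at 11 °C (13), then without replicates 1 and 2 at 25 °C (15 and 19), and the fewest falls without replicate 1 at 11 °C or replicate 2 at 25 °C (4 each; 7 without replicate 2 at 11 °C). At 13 °C, F-box rises were 15 without replicate 2 and falls 9 without replicate 1 at that temperature. Of 52 BTB adaptors, 11 rose and 11 fell at 11 °C (21.2% each) and 13 rose and 13 fell at 13 °C (25.0% each), and quantile scaling gave 11 and 19, and 9 and 19. BTB rises at 11 °C were 5 without replicate 2 at 11 °C, or 6 when replicate 1 at 25 °C was left out, and falls were 6 without replicate 1 at 11 °C. BTB rises at 13 °C were 8 and 7 without replicates 1 and 2 at 13 °C and 8 without replicate 1 at 25 °C, and falls were 8 without replicate 1 at 13 °C. LOC_Os02g39970 (F-box/LRR-repeat protein 16) rose from 4.23 ± 1.24 to 92.4 ± 34.6 RPKM at 11 °C (SD, n = 2; limma adjusted p = 6.17e-05). LOC_Os11g02620, a BTB/POZ domain protein, fell from 203.0 ± 68.0 to 9.03 ± 2.6 RPKM at 13 °C (adjusted p = 4.73e-05).

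For the related modifiers NEDD8 and SUMO, 5 of 23 loci rose (21.7%) and 3 fell (13.0%) at 11 °C, and 1 rose (4.35%) and 4 fell (17.4%) at 13 °C. The 5 rises at 11 °C were 2 without replicate 2 at 11 °C or replicate 1 at 25 °C, and the 4 falls at 13 °C were 1 without either 13 °C library and 2 without replicate 1 at 25 °C. These splits were 6 and 6 or 5 and 7 at 11 °C with scaling, and 3 and 4 at 13 °C with quantile scaling. LOC_Os07g39780 (SUMO-activating enzyme subunit 2) rose from 10.8 ± 2.26 to 64.6 ± 22.8 RPKM at 11 °C (SD, n = 2; limma adjusted p = 0.000552).

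The 225 other loci described as E3 ligases or RING finger proteins had 67 rises (29.8%) and 45 falls (20%) at 11 °C, shares near the background. They had 33 rises (14.7%) and 55 falls (24.4%) at 13 °C, and 58 loci were higher (25.8%) and 16 lower (7.11%) at 11 °C than at 13 °C, against 17.3% and 18.2% of all tested loci. The 67 rises were 41 without replicate 2 at 11 °C, the 33 rises 20 without replicate 2 at 13 °C, and the 55 falls 23 without replicate 1 at 13 °C and 36 without either 25 °C library. The 58 were 32 without replicate 2 at 11 °C, or 31 when replicate 1 at 13 °C was left out, and the 16 were 6 and 10 without replicates 1 and 2 at 11 °C and 6 without replicate 2 at 13 °C. Their median change was 0.11, -0.17 and 0.29 in these comparisons, beside 0.24, 0.07 and 0.35 for the RING-H2 and U-box loci. In both sets more loci were higher at 11 °C than at 13 °C than the reverse, under each scaling. LOC_Os10g30850 (RING finger protein 141) went from 0.611 ± 0.21 RPKM at 25 °C to 75.7 ± 7.43 at 11 °C and 24.3 ± 4.98 at 13 °C (SD, n = 2; limma adjusted p = 8.15e-06 and 2.69e-05). LOC_Os03g16780 (E3 ubiquitin-protein ligase XB3) had 51.3 ± 9.81 RPKM at 11 °C and 1.24 ± 0.744 at 13 °C (adjusted p = 8.76e-05).

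**Figure D5:**
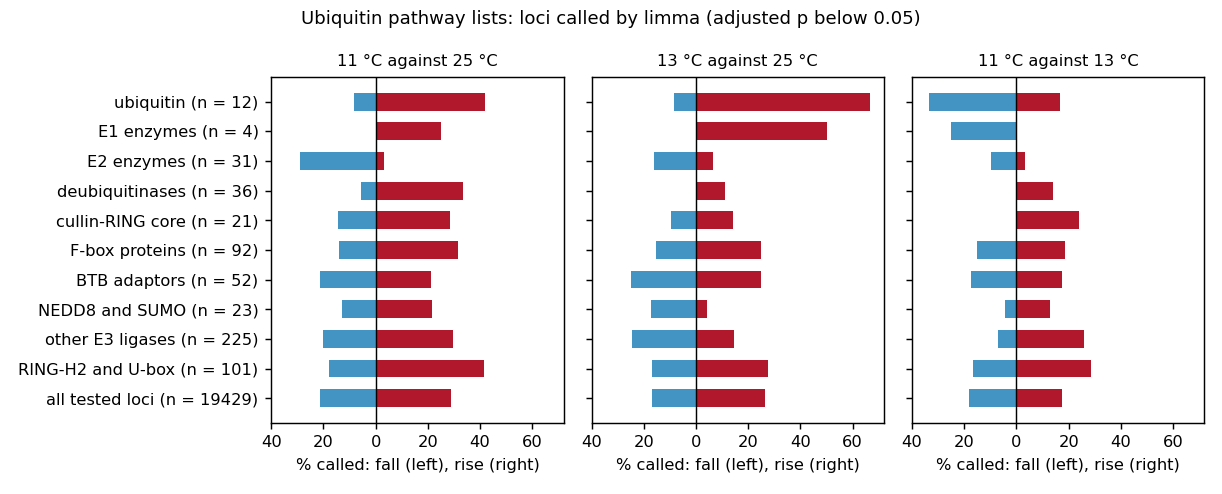
Loci that rose or fell in each list of the ubiquitin system, in percent of the list, for the 3 temperature comparisons by limma at an adjusted p below 0.05. Ubiquitin loci have the highest percentage of rises at 13 °C, 66.7%, and E2 enzymes have more falls than rises in all 3 comparisons, although median-of-ratios scaling gave 5 ubiquitin rises at 13 °C and 3 and 3 E2 calls at 11 °C against 13 °C.

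Between 11 °C and 13 °C, where 17.3% of all tested loci were higher and 18.2% lower, ubiquitin loci were higher in 2 and lower in 4, E1 loci lower in 1, and E2 loci higher in 1 and lower in 3. Deubiquitinases were higher in 5 and the cullin-RING core in 5, with no lower locus in either list; under both scalings 1 deubiquitinase was lower. F-box loci were higher in 17 and lower in 14, BTB loci 9 and 9, and NEDD8 and SUMO loci 3 and 1. Scaling changed the split to 2 and 2 for ubiquitin under quantile scaling, 3 and 3 for E2 under median-of-ratios scaling, and 13 and 8 or 14 and 9 for BTB loci. With 1 library left out, the counts ran from 1 to 5 higher for deubiquitinases, 10 to 17 higher and 4 to 11 lower for F-box loci, 4 to 9 higher and 5 to 9 lower for BTB loci, 2 to 4 lower for ubiquitin, and 2 to 5 higher for NEDD8 and SUMO. The lowest deubiquitinase count came without replicate 2 at 11 °C or replicate 1 at 13 °C, and the lowest F-box counts without replicate 1 at 13 °C (10 higher) and replicate 2 at 13 °C (4 lower).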

How the data were processed

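RNA of stems and leaves was sequenced from 6 libraries, 2 at each of 11, 13 and 25 °C, prepared with the NEBNext Ultra kit per the labels' protocols. Reads were aligned with TopHat2 2.0.12 per the submitters' processing notes; counting program, build, annotation and strand setting: not given in the sources used here. The authors' deposited table gives RPKM per locus and library; coordinates are printed as it gives them. Library totals and gene lengths were recovered from the steps between RPKM values, and all values of the 19429 tested loci then fell within 0.02 of a whole number of reads. No count test was run.

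Loci written LOC_Os that reached RPKM 1 in 2 or more libraries were analysed as log2(RPKM + 1) with limma 3.58.1 in R 4.3.3: 1 fit of all 6 libraries, 3 contrasts, empirical Bayes with a mean-variance trend, Benjamini-Hochberg adjustment over the 19429 loci, calls at 0.05. The script was tested on simulated data. With 2 libraries a group, p-values measure the spread between these samples.

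The loci and lists were chosen with earlier results of these data known. Named are, per comparison and family, the up to 5 largest called rises and falls, the 4 highest mean levels, loci called in opposite directions at 11 and 13 °C, and loci of the PUB12, PUB13, PUB22 to PUB26, ATL2, ATL6 or ATL31 types; per list and comparison, the largest called rise and fall, of which some are printed. Other loci are named as examples of a best match or as neighbours and were chosen after their values were seen. No accession in the table's RefSeq column for the ligase loci matched the RefSeq gene table provided, no sequences were given, and no sequence features were analysed here. Alternatives were 2 other filters, 2 scalings, another pseudocount, no trend, the replicate number as a block, only the 4 libraries compared, and leaving out each library.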

Additional observations from a re-analysis of the deposited data

Results flagged for a closer look

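The PUB4-type locus LOC_Os07g39590 stands out because its effect differed between the 2 low temperatures, with a rise at 13 °C and a fall at 11 °C against the same 25 °C libraries. The difference between 11 °C and 13 °C was a log2 change of -1.82 (limma adjusted p = 0.00103). Among all tested loci, 1.01% rose at 13 °C and fell at 11 °C. A call of the difference between 11 °C and 13 °C was part of the rule that flagged the locus, so it is not a further test. This difference passed in each alternative run, whereas the fall at 11 °C alone was lost in 7 of 14 settings.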

How the results depend on the processing

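The calls that passed in each of the alternatives run were 36 of 60 at 11 °C against 25 °C, 27 of 45 at 13 °C against 25 °C and 21 of 46 at 11 °C against 13 °C, and calls made both with and without an alternative had the same direction. With a mean RPKM of at least 5, 50 of the 101 loci were tested, and the counts were 23 rising and 10 falling at 11 °C, 16 rising at 13 °C, and 14 higher and 7 lower at 11 °C than at 13 °C; fewer loci are tested by construction. Without a filter, 11 were lower at 11 °C than at 13 °C. Quantile scaling gave 26 falls at 13 °C; the cause was not tested. Leaving out 1 library gave 32 to 41 rises and 9 to 18 falls at 11 °C, 18 to 26 rises and 10 to 15 falls at 13 °C, and 15 to 29 higher and 7 to 18 lower loci at 11 °C than at 13 °C. The libraries that moved a count by over 1.5 times were replicate 1 at 11 °C (9 falls, and 7 lower than at 13 °C), replicate 2 at 11 °C (16 higher than at 13 °C), replicate 1 at 13 °C (10 falls, and 15 higher at 11 °C) and replicate 2 at 13 °C (18 rises and 11 falls, and 7 lower at 11 °C). The labels do not say that replicate numbers pair the samples; deviations of same-numbered libraries correlated at 0.71, 0.61 and 0.67 across loci, with only 2 numbers. With the replicate block the counts were 45 rising and 28 falling at 11 °C, 34 and 25 at 13 °C, and 47 higher and 27 lower at 11 °C than at 13 °C. No call was lost with it. Changes given above as not passing were called at 13 °C for LOC_Os09g05030 (limma adjusted p = 0.00799), LOC_Os06g09310 (0.0255) and LOC_Os02g28720 (0.0304). So were LOC_Os05g36360 (0.0159) and LOC_Os09g21740 (0.0226) at 11 °C, and LOC_Os06g13870 at 11 °C against 13 °C (0.0379). With the block LOC_Os09g21740 was thus also called in opposite directions at 11 and 13 °C.

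Uncalled changes of named loci turned sign as follows, and no turned value passed the threshold. Under quantile scaling they were -0.12 for LOC_Os08g37570 at 11 °C, -0.15 for LOC_Os01g11520 at 13 °C, and 0.04 for LOC_Os05g29676 and 0.09 for LOC_Os02g12660 at 11 °C against 13 °C. Under median-of-ratios scaling they were -0.01 for LOC_Os03g13010 at 13 °C and 0.0 for LOC_Os02g12660 at 11 °C against 13 °C. With 1 library left out, the ranges that cross 0 were, at 11 °C, -0.98 to 0.42 for LOC_Os01g20930, -0.37 to 0.19 for LOC_Os02g15110 and -0.14 to 0.38 for LOC_Os08g37570. At 13 °C they were -0.21 to 0.97 for LOC_Os02g36330, -0.15 to 0.06 for LOC_Os02g46100, -0.32 to 0.01 for LOC_Os05g39260, -0.09 to 1.01 for LOC_Os02g34410, -0.37 to 0.7 for LOC_Os03g13010, -0.51 to 0.22 for LOC_Os03g60140 and -0.48 to 0.04 for LOC_Os06g37620. At 11 °C against 13 °C they were -0.01 to 1.4 for LOC_Os05g07140, -0.19 to 0.1 for LOC_Os05g29676, -0.01 to 0.38 for LOC_Os07g42610 and -0.12 to 0.1 for LOC_Os02g12660. The counts of the 9 pathway lists moved by over 1.5 times in 200 of 756 recalculations, which used 54 counts and 14 settings. Low read numbers at 25 °C limit the folds of loci close to 0 there, and those at 11 °C limit the fold of LOC_Os07g42610.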
